A study of Nicotiana tabacum with 8 samples.

Results

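Among the 135146 unigenes assembled from the leaf RNA of 2 tobacco cultivars, 24 were well above the lower end of the table in every control library and higher by at least 3 log2 units in every cold library. They were chosen by their measured values: a log2 value of at least 2 in all 4 control libraries, and a gap of at least 3 between the lowest of the 4 cold libraries and the highest of the 4 control libraries. One further unigene met both conditions, c69854_g3, which the study lists as NAC002, and was left out. The plants were Nicotiana tabacum, cultivars CB-1 and K326, taken when they had 6 leaves. Control plants of CB-1 (CC) and K326 (KC) had light periods at 28 °C and dark periods at 24 °C, and treated plants of CB-1 (CT) and K326 (KT) spent 1 day at 4 °C. Leaves of 6 plants went into each sample, and each of the 4 groups had 2 libraries. Nothing in the labels says whether the libraries of a group came from separately grown sets of plants, so every p-value below measures the spread between these libraries, which may be technical.

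Tobacco is an allotetraploid that carries both parental genomes, of Nicotiana sylvestris and Nicotiana tomentosiformis, so most genes exist as nearly identical copies. In the cold, plants such as Arabidopsis switch on CBF/DREB transcription factors within hours, and these activate COR genes whose products protect membranes and proteins. Some of these genes are nearly silent in the warm. The rule used here asked instead for unigenes that already had a measurable level in unstressed leaves.

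The deposited value of a unigene is the log2 of its RSEM abundance plus 1, and RSEM divides reads that match several similar sequences among them. The paper lists total reads per library, which were well lower for CT1 and KC1 than for CT2 and KC2. Counts per unigene were not used here, so the number of reads behind a value is unknown. The scaling of the abundance is not given in the sources used here. Linear values, 2 to the power of the value minus 1, summed to between 409394 and 469248 per library. Levels are therefore compared between libraries, and an order of levels between unigenes holds only for this scale, on which a correction for length could not be checked. Since a leaf holds many cell types and the values are relative to each library, more RNA per cell, more cells that hold the RNA and less of all other RNA cannot be told apart. The table names unigenes only by their assembly numbers, and the leaf label could not be checked against leaf markers. The study's annotation was available for 1 of the 24, c59756_g1, named Auxin-induced protein 6B. No sequence of these unigenes was used here.

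The closest pair of control libraries, CC1 and KC2, carried the labels of different cultivars. Over the 31884 unigenes that reached a value of 1 in 2 libraries or more, the median absolute log2 difference was 0.15 between CC1 and KC2, 0.21 between CC1 and CC2, 0.24 between KC1 and KC2, and 0.23 for each of the other 3 pairs. Among the 24, CC2 and KC1 differed by a median of 0.38, against 0.27 for CC1 and KC2, 0.29 for CC1 and CC2 and 0.31 for KC1 and KC2. The median was 0.34 for CC1 and KC1 and 0.41, the largest, for CC2 and KC2. The sum of the crossed differences was under that of the labelled pairs in 10 of the 24 (35.8% of all tested). Over all tested, the difference between replicates 1 and 2 in CC had a correlation of −0.376 with that in KC. For the other pairs of groups this correlation was −0.043 to 0.044. Whether control libraries were exchanged was not tested. Every comparison below that involves the control groups is one of libraries labelled CB-1 and K326, and the main counts and medians between the cultivars are also given with CC2 and KC2 exchanged where that changes them. Differences between CT and KT use no control library in their means.

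The unigene with the highest level was c61196_g1. Its log2 values were 6.95 and 7.11 in the CC libraries, 6.60 and 7.22 in KC, 12.36 and 12.24 in CT and 12.27 and 12.00 in KT. Control and cold libraries were thus separated by a gap of 4.78, the widest among the 24, while the cultivars overlapped on both sides. The ratio of mean linear values, cold over control, was 38.7 for CB-1 and 37.1 for K326. It stood at rank 433 to 713 among all unigenes in the control libraries, and rose to rank 2 in both CT libraries and rank 3 in both KT libraries.

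The unigene c51206_g1 came next, with values of 6.86 and 6.15 in CC, 6.08 and 7.38 in KC, 11.21 and 11.37 in CT and 10.83 and 11.25 in KT. Its control libraries were spread widely, with CC1 and KC2 high and CC2 and KC1 low, and the cold libraries lay close together. Its rank went from between 378 and 1072 in the control libraries to between 6 and 11 in the cold. For c65010_g1 the values were 5.87 and 5.33 in CC, 6.10 and 5.89 in KC, 9.81 and 9.43 in CT and 9.97 and 9.67 in KT. Both KC libraries were above both CC libraries, and the cold libraries of the cultivars overlapped. These 3 had the highest mean of the 24 in the control libraries (6.97, 6.62 and 5.80) and also in the cold libraries (12.22, 11.16 and 9.72).

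Together the 24 unigenes took up 0.122% and 0.105% of the summed linear values in CC1 and CC2, and 0.105% and 0.137% in KC1 and KC2. In the cold the share was 3.01% in CT1, 2.98% in CT2, 3.31% in KT1 and 2.83% in KT2. A large part of the cold share belonged to 1 unigene: c61196_g1 alone held 0.0204% to 0.0329% of a control library and 0.972% to 1.23% of a cold library. Without it, the mean share was 0.0893% in the control libraries and 1.89% in the cold libraries, against 0.117% and 3.03% with it. The rule chose the unigenes on these differences, so the shares describe the group and are not a test of it.

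**Figure D1:**
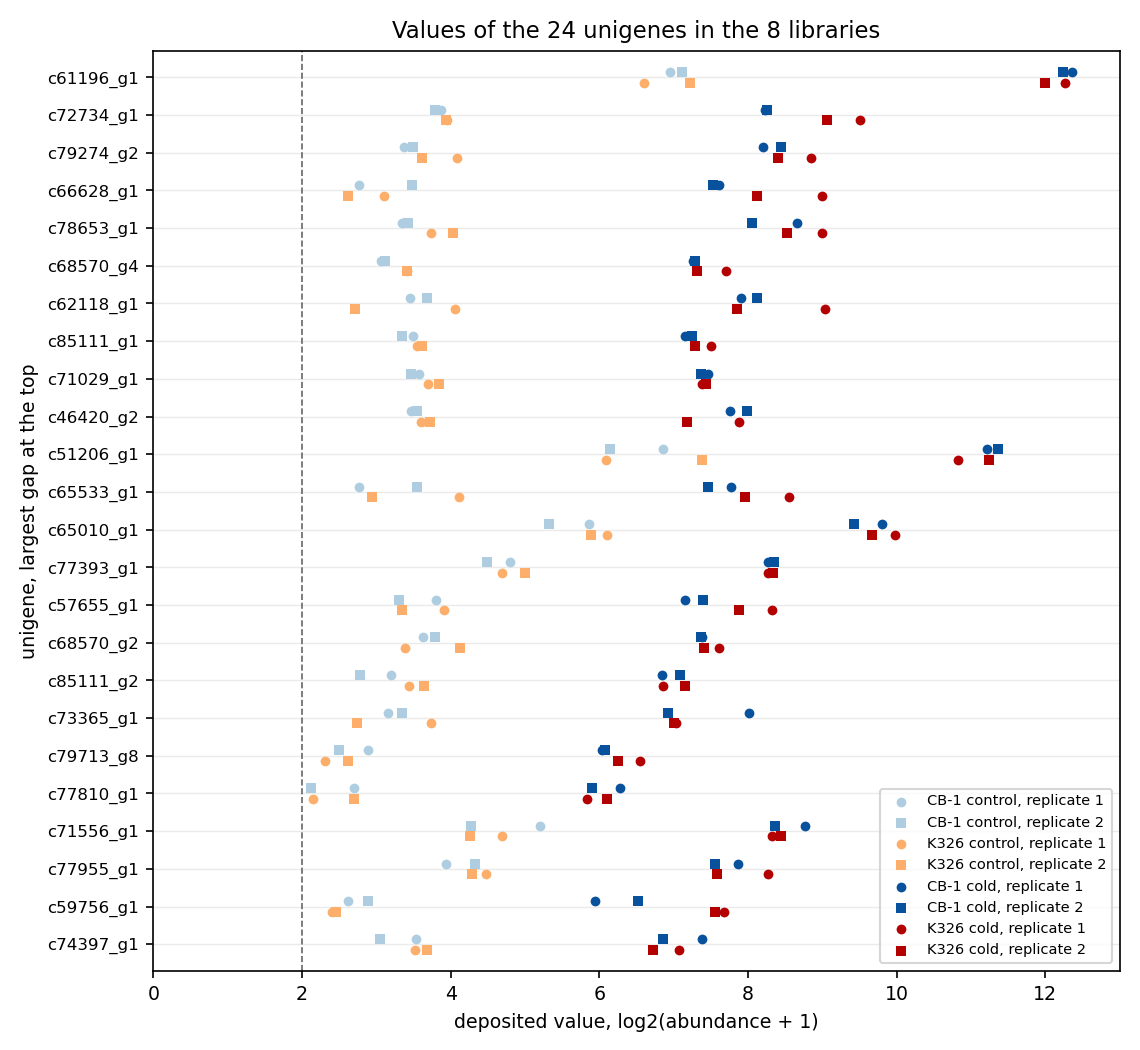
Deposited log2 values of the 24 unigenes (rows, largest gap at the top) in each of the 8 libraries, with 1 point per library, circles for replicate 1 and squares for replicate 2. The dashed line marks the control value of 2 that the rule required. Every cold point lies at least 3 log2 units to the right of every control point of its row, as the rule demands, and the red cold points lie wholly to the right of the blue ones in 9 rows, by the widest margin for c59756_g1.

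Of the unigenes with moderate control levels, c77393_g1 was the most even. It had values of 4.80 and 4.49 in CC and 4.69 and 5.001 in KC, and of 8.27 and 8.35 in CT and 8.26 and 8.34 in KT. The 4 cold libraries spanned only 0.09 log2 units, the smallest cold range of the 24, and the control libraries of the cultivars overlapped. The values of c71556_g1 were 5.21 and 4.28 in CC, 4.69 and 4.27 in KC, 8.77 and 8.37 in CT and 8.32 and 8.45 in KT, with CC1 the highest control library. For c77955_g1 they were 3.94 and 4.33 in CC, 4.47 and 4.29 in KC, 7.87 and 7.56 in CT and 8.27 and 7.58 in KT. Here KT1 was high and the other 3 cold libraries lay together.

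The remaining members had a mean control value between 2.42 and 3.88. The widest gaps among them belonged to c72734_g1 (4.28), c79274_g2 (4.12), c66628_g1 (4.06) and c78653_g1 (4.02), and with c61196_g1 these were the 5 widest of all. The unigene c72734_g1 had values of 3.86 and 3.78 in CC, 3.95 and 3.94 in KC, 8.23 and 8.25 in CT and 9.51 and 9.07 in KT. Its control libraries spanned 0.17, the smallest control range of the 24, and both KT libraries were clearly above both CT libraries. The values of c79274_g2 were 3.37 and 3.49 in CC, 4.08 and 3.62 in KC, 8.20 and 8.45 in CT and 8.84 and 8.41 in KT, with KC1 high among the controls and KT2 inside the range of CT. The unigene c78653_g1 had 3.35 and 3.43 in CC, 3.74 and 4.03 in KC, 8.65 and 8.05 in CT and 9.00 and 8.53 in KT, and both KC libraries lay above both CC libraries while the cold libraries overlapped.

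For c66628_g1 the values were 2.77 and 3.47 in CC, 3.10 and 2.62 in KC, 7.62 and 7.53 in CT and 9.00 and 8.12 in KT. Both KT libraries were above both CT libraries, but they also differed from each other by 0.88. For c66628_g1 the linear ratio was 23.8 with the CB-1 libraries and 61.8 with those of K326, the latter being the highest ratio of the 24 in either cultivar. Across all 24 this ratio ran from 11.9 to 38.7 in CB-1 (median 17.05) and from 10.7 to 61.8 in K326 (median 17.2).

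A group of members showed replicates far apart. In c62118_g1 the values were 3.45 and 3.69 in CC, 4.06 and 2.72 in KC, 7.91 and 8.12 in CT and 9.04 and 7.85 in KT, and its KC and KT replicates differed by more than 1 log2 unit, in both cases with replicate 1 higher. Its control range of 1.35 was the widest of the 24. The values of c65533_g1 were 2.76 and 3.55 in CC, 4.11 and 2.94 in KC, 7.77 and 7.47 in CT and 8.56 and 7.96 in KT. In c73365_g1 they were 3.16 and 3.34 in CC, 3.74 and 2.74 in KC, 8.01 and 6.93 in CT and 7.04 and 7.01 in KT, with CT1 standing above the other 3 cold libraries by about 1 log2 unit. In all 3 of these unigenes CC2 and KC1 were both above CC1 and KC2.

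Values close together within each group were seen for c71029_g1, with 3.57 and 3.47 in CC, 3.69 and 3.84 in KC, 7.47 and 7.37 in CT and 7.39 and 7.44 in KT. In the cold its cultivars overlapped within 0.10 log2 units, whereas both KC libraries were above both CC libraries. The unigene c46420_g2 had 3.47 and 3.55 in CC, 3.61 and 3.73 in KC, 7.76 and 7.99 in CT and 7.88 and 7.18 in KT, with KT2 the lowest cold library. For c57655_g1 the values were 3.80 and 3.31 in CC, 3.91 and 3.35 in KC, 7.15 and 7.40 in CT and 8.32 and 7.88 in KT, and both KT libraries were above both CT libraries. The lowest of the members in the control libraries were c77810_g1 and c79713_g8. Values of c77810_g1 were 2.70 and 2.13 in CC, 2.15 and 2.70 in KC, 6.28 and 5.91 in CT and 5.83 and 6.10 in KT, and those of c79713_g8 were 2.89 and 2.49 in CC, 2.31 and 2.62 in KC, 6.04 and 6.08 in CT and 6.55 and 6.25 in KT. Both had CC1 and KC2 above CC2 and KC1, and in c79713_g8 both KT libraries were above both CT libraries.

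The one annotated member was c59756_g1. Its name, Auxin-induced protein 6B, comes from a soybean protein of the SAUR family (small auxin up RNA), whose members are switched on quickly by the growth hormone auxin and, in Arabidopsis, promote cell expansion. Values of c59756_g1 were 2.62 and 2.89 in CC, 2.41 and 2.46 in KC, 5.94 and 6.52 in CT and 7.68 and 7.55 in KT. Both CC libraries were above both KC libraries, the only member for which that was so, and in the cold the order was turned round, with both KT libraries more than 1 log2 unit above both CT libraries. The linear ratio was 13.1 for CB-1 and 44.6 for K326, and its cold range of 1.74 was the widest of the 24. Whether the assembled sequence is a SAUR gene was not checked here beyond the name the study gave it.

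The rule cuts through a continuous distribution. Just inside the gap of 3 were c74397_g1 (3.05), c59756_g1 (3.05) and c77955_g1 (3.09), and just outside it, with all control values of at least 2, were c53905_g1 (2.99), c63754_g1 (2.96) and c67550_g1 (2.93). On the side of the control level, the members with the lowest control value were c77810_g1 (2.13), c79713_g8 (2.31) and c59756_g1 (2.41), and just outside were c78385_g2 (1.96), c66107_g2 (1.96) and c80278_g1 (1.92), which met the gap. The unigene c74397_g1, the last of the 24 by gap, had values of 3.53 and 3.05 in CC, 3.52 and 3.68 in KC, 7.38 and 6.86 in CT and 7.07 and 6.72 in KT, and its cold libraries overlapped between the cultivars.

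Among the 10875 unigenes at a value of 2 or more in all control libraries, 25 (0.23%) met the gap of 3, the 24 and c69854_g3. The gap in the other direction, all control libraries above all cold libraries by at least 3, was met by 106 of these unigenes (0.975%). It is no mirror of the rule, since the level of 2 was asked of the control libraries in both directions. Every fall of 3 or more meets that level, whereas rises from lower levels are left out. Among these unigenes, 374 were raised and 1725 lowered by at least 1, 123 and 492 by at least 2, and 5 and 17 by at least 4. This split depended on the scaling. After scaling every library by its median ratio, 53 unigenes met the gap of 3 upwards and 67 downwards, so that the raised made up 44.2% of both in place of 19.1%. With quantile normalization 31 met it upwards and 91 downwards, and the raised made up 25.4%. In all of these settings more unigenes were lowered than raised among those at the control level. Asking for this level favours that order. As deposited, a further 261 unigenes met the gap of 3 upwards without the control level, more than the 106 that fell by it. Of the 261, 100 were listed at 0 in all control libraries. Without the control level, rises of this size outnumbered falls. The 24 are thus the smaller portion of the unigenes with such a gap.

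**Figure D2:**
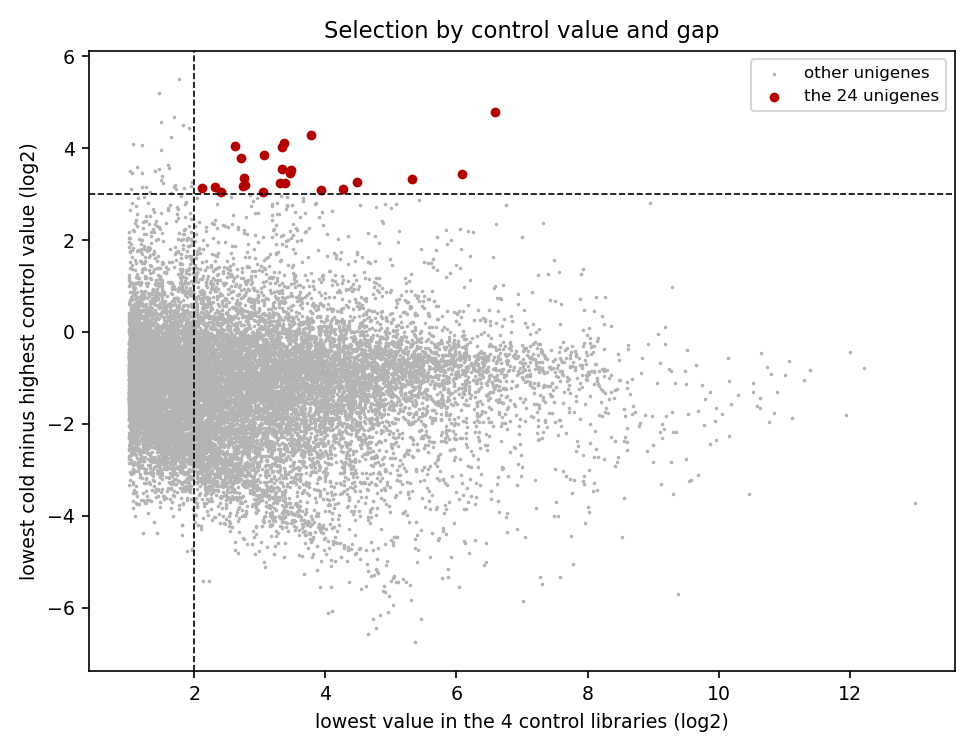
Lowest control value (horizontal axis, log2) against the lowest cold value minus the highest control value (vertical axis, log2 units) for each unigene with all control values of at least 1. Dashed lines mark the limits of 2 and 3; the 24 chosen unigenes (red) fill the upper right corner, and the least abundant of them lie just right of the limit of 2. A fall by the same margin cannot be read from the vertical axis, which only a complete separation of cold above control makes positive.

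In one limma fit of the 4 group means, the log2 change of the 24 ran from 3.37 (c79713_g8) to 5.27 (c61196_g1) in CB-1, with a median of 4.00, and from 3.30 (c74397_g1) to 5.70 (c66628_g1) in K326, with a median of 3.92. Standard errors were 0.13 to 0.53. Over all 31884 unigenes tested, CB-1 had a median change of −0.20 and K326 one of −0.31. Scaling by the median ratio brought these to 0.00 and moved the medians of the 24 to 4.32 and 4.34. With CC2 and KC2 exchanged the medians of the 24 were 3.79 in CB-1 and 4.05 in K326. With quantile normalization they were 4.02 and 4.04, so the order of the cultivars depended on the setting. All 24 passed the threshold upwards in both cultivars (limma with Benjamini-Hochberg adjustment, adjusted p under 0.05 and a log2 change over 1 in size), which the rule left little room to avoid, and nothing is read from it. Of all unigenes tested, 32.9% passed in CB-1 (15.5% upwards and 17.4% downwards) and 34.2% in K326 (14.7% upwards and 19.5% downwards).

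The rule did not use the direction between the cultivars. Through the lowest cold and the highest control value it did use every library and limits how far the cultivars can lie apart among the 24, so the calls and intervals below hold for unigenes selected in this way. For a single unigene the smallest two-sided p of an exact permutation test is 0.333 at 2 libraries a group, so limma, which pools information on the spread over unigenes, was used. In the cold, none of the 24 differed between K326 and CB-1 past the threshold (0 of 24), compared with 0.405% of all unigenes tested (129 unigenes, 0.248% higher and 0.157% lower in K326). The unadjusted p was under 0.05 for 4 of the 24 (16.7%), against 13.5% of all. The median difference of the 24, KT minus CT, was 0.20 against 0.00 over all tested. The difference was positive for 15 of them (62.5%), against 45.2% of all tested. By order alone, both KT libraries were above both CT libraries in 9 of the 24 (19% of all tested), and both CT libraries were above both KT libraries in 0 of the 24 (18.5% of all tested).

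The largest of these differences belonged to c59756_g1, the unigene annotated as Auxin-induced protein 6B, which was higher by 1.38 in KT than in CT (standard error 0.22, 95% interval 0.84 to 1.93, limma adjusted p = 0.0724, unadjusted p = 0.000769). Next was c72734_g1 with 1.05 (standard error 0.17, interval 0.62 to 1.47, limma adjusted p = 0.0736). For c66628_g1 the difference was 0.98 with an interval from 0.08 to 1.89, and for c57655_g1 it was 0.82 with an interval from 0.13 to 1.52 (limma adjusted p = 0.326 and 0.28). All 4 had both KT libraries above both CT libraries, and so did c79713_g8, c65533_g1, c68570_g4, c68570_g2 and c85111_g1 with smaller differences of 0.14 to 0.64. In the other direction the largest were c73365_g1 (−0.44, interval −1.52 to 0.63), c46420_g2 (−0.34, interval −0.94 to 0.26) and c51206_g1 (−0.25, interval −1.36 to 0.86), in each of which the libraries of the cultivars overlapped.

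The calls for the first pair were near the threshold and moved with the control libraries, which enter the fit through its shared spread. With CC2 and KC2 exchanged, both passed it (limma, c59756_g1 1.39 with adjusted p = 0.0447, c72734_g1 1.05 with adjusted p = 0.037), and the same 2 unigenes passed with all 4 control libraries as one group. The calls over all unigenes went up too, from 129 to 1096 (3.44%) with the exchange and to 820 (2.57%) with one control group. Without CT2, c59756_g1 alone of the 24 passed (1.67, limma adjusted p = 0.0329), beside 719 of all unigenes (2.26%). Over the 19 alternatives the limma adjusted p ranged from 0.0329 to 0.277 for c59756_g1 and from 0.0302 to 0.366 for c72734_g1, and the difference from 1.09 to 1.67 and from 0.82 to 1.27.

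**Figure D3:**
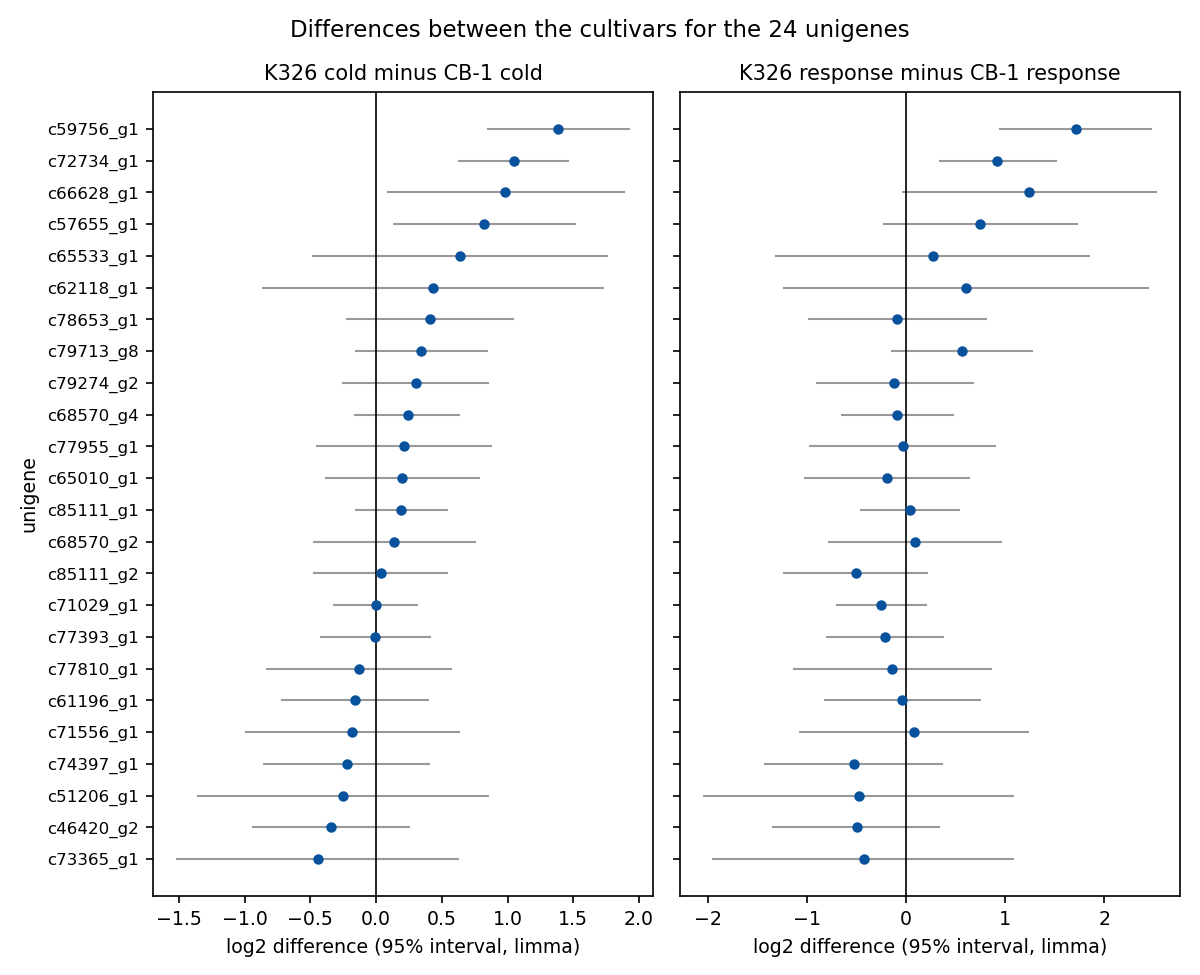
Differences between the cultivars for the 24 unigenes, as points with 95% intervals from limma: on the left the log2 value in K326 cold minus CB-1 cold, on the right the cold response in K326 minus that in CB-1, both in log2 units and in the same order of rows. Intervals of c59756_g1 and c72734_g1 lie to the right of 0 in both panels before any adjustment for the number of unigenes tested, and most others span 0.

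The control groups gave no unigene past the threshold, among the 24 (0 of 24) or among all tested (0%, either direction). In limma, 1127 of all unigenes (3.53%) reached an unadjusted p under 0.05. So did 1 of the 24, c85111_g2, which was higher by 0.55 in KC (limma, adjusted p = 1). A test of each unigene without moderation called 13 of all unigenes and again 0 of the 24, and with CC2 and KC2 exchanged limma called 667 of all and 0 of the 24. KC minus CC was positive for 17 of the 24 (70.8%), against 57.5% of all tested, with a median of 0.16. With CC2 and KC2 exchanged it was positive for 9 of the 24 and the median was −0.11, so the labelled direction rests on which control library is assigned to which cultivar. Both KC libraries were above both CC libraries in 9 of the 24 (18.2% of all tested), and the reverse was found for 1, c59756_g1 (7.99% of all tested). For the crossed arrangements, CC2 and KC1 were both above CC1 and KC2 in 5 of the 24 (17% of all tested), and both below in 5 (18.4%).

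The cold response itself, KT minus KC less CT minus CC, did not differ past the threshold for any of the 24 (0 of 24) or for any unigene tested (0%) in limma, although 2934 of all unigenes (9.2%) and 2 of the 24 had an unadjusted p under 0.05. The first was c59756_g1, with a rise of 3.48 in CT over CC and 5.19 in KT over KC, a difference of 1.71 (standard error 0.32, interval 0.94 to 2.48, limma adjusted p = 0.251). The second was c72734_g1, which rose by 4.42 and 5.34, a difference of 0.92 (standard error 0.24, interval 0.33 to 1.52, limma adjusted p = 0.332). For c66628_g1, with rises of 4.45 and 5.70, the interval of the difference was −0.04 to 2.53. Without moderation 143 of all unigenes passed, and 30 in limma with the exchange, in both cases with 0 of the 24 among them. At the other end c74397_g1 had rises of 3.83 and 3.30, a difference of −0.53 with an interval from −1.43 to 0.37. The median over the 24 was −0.06, against −0.08 over all tested, and 10 were positive (41.7%), against 42.7% of all tested. With CC2 and KC2 exchanged the median was 0.31 and 19 were positive, with no share over all tested counted for that setting.

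The precision of the response difference varied from unigene to unigene. The interval of the response difference was narrowest for c71029_g1 (−0.71 to 0.21), c85111_g1 (−0.47 to 0.54) and c68570_g4 (−0.66 to 0.48), so for these a difference over 1 log2 unit lies outside the 95% interval. It was widest for c62118_g1 (−1.24 to 2.45), c65533_g1 (−1.32 to 1.86) and c51206_g1 (−2.05 to 1.09), the members with replicates far apart, and there a difference of that size lies inside the interval. For c61196_g1, the most abundant, the rises of 5.27 and 5.23 differed by −0.04 with an interval from −0.83 to 0.76.

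The spread between replicate libraries was also compared. The median absolute difference of the 24 was 0.29 in CC, 0.31 in KC, 0.23 in CT and 0.33 in KT, compared with 0.21, 0.24, 0.31 and 0.28 over all tested. In KT, replicate 2 was higher in only 6 of the 24, with a median of −0.30 for KT2 minus KT1, whereas over all tested it was higher in 53.5% with a median of 0.04. In CT replicate 2 was higher in 12 of the 24. A member's level in K326 cold thus depended on the library, and the median KT minus CT difference of the group was 0.04 without KT1 and 0.33 without KT2.

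Trinity gives unigenes that share assembled sequence the same component number, such as c61196 in c61196_g1. The 24 came from 22 components, of which 14 held only that 1 unigene and 8 held several. These 8 also contained 29 unigenes outside the group, and 23 of them passed the filter on low values. Unigenes of one component can be gene copies, splice forms or fragments of one transcript and may share reads, so they are no independent measurements. Past the limma threshold, 12 of the 23 rose in CB-1 and 3 fell, while 14 rose in K326 and 3 fell, with median changes of 1.72 and 1.82. The percentages of all unigenes that rose were 15.5% and 14.7%.

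Component c68570 held 2 of the 24. Values of c68570_g4 were 3.06 and 3.11 in CC, 3.42 and 3.41 in KC, 7.27 and 7.29 in CT and 7.71 and 7.32 in KT, and those of c68570_g2 were 3.63 and 3.78 in CC, 3.38 and 4.13 in KC, 7.38 and 7.37 in CT and 7.61 and 7.42 in KT. Both reached similar values in the cold and differed little between the cultivars. The other 4 unigenes of the component also rose in both cultivars. For c68570_g1 the cold values were 5.91 and 6.18 in CT and 7.34 and 6.65 in KT, from 3.53 and 3.78 in CC and 3.51 and 3.79 in KC. In c68570_g1, c68570_g3 and c68570_g6 both KT libraries were above both CT libraries, by 0.95, 0.88 and 0.98 on average, whereas for the members of the component the difference was 0.24 (c68570_g4) and 0.14 (c68570_g2); none of the 5 passed the threshold (limma adjusted p from 0.195 to 0.923).

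The second component with a pair of members was c85111, which held no other unigene. Values of c85111_g1 were 3.498 and 3.34 in CC, 3.54 and 3.61 in KC, 7.15 and 7.25 in CT and 7.50 and 7.29 in KT, and those of c85111_g2 were 3.20 and 2.78 in CC, 3.43 and 3.64 in KC, 6.84 and 7.08 in CT and 6.85 and 7.15 in KT. The pair moved alike, with rises of 3.78 and 3.97 in CB-1 and of 3.81 and 3.46 in K326, and in both unigenes both KC libraries lay above both CC libraries.

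In c61196 the most abundant member was joined by unigenes that went different ways. The unigene c61196_g2 rose by 4.77 (CB-1) and 4.64 (K326), from 2.33 and 1.13 in CC and 1.65 and 1.37 in KC, and stayed outside the group since 3 of its control values were below 2. In contrast c61196_g3 fell by 1.70 and by 1.92 (limma adjusted p = 0.00211 and 0.00143), from 4.05 and 4.17 in CC and 3.97 and 3.98 in KC to 2.61 and 2.21 in CT and 1.88 and 2.23 in KT. The last one, c61196_g4, was listed at 0 in all control libraries and at 1.13 and 0.80 in CT and 1.62 and 1.69 in KT. Opposite directions also occurred in c71556, in which c71556_g2, c71556_g3, c71556_g9 and c71556_g10 rose with c71556_g1 while c71556_g4 fell by 1.29 in CB-1 and 1.54 in K326.

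The component c79713 was the largest, with 11 unigenes, and c79713_g8 was the only one of them with a rise in both cultivars. Its neighbour c79713_g9 rose past the threshold in K326 (1.82, limma adjusted p = 0.015) and had a change of 0.84 in CB-1 (limma adjusted p = 0.152). The unigene c79713_g10 fell by 1.04 in CB-1 and c79713_g7 fell by 1.34 in K326, while c79713_g2, at values of 3.29 to 3.93 in all 8 libraries, passed the threshold in neither cultivar. In the components of 2 unigenes with 1 member, the other unigene rose as well: c46420_g1 by 4.06 and 3.66, c77810_g2 by 3.07 and 2.89, and c79274_g1 by 1.73 and 2.03 (CB-1 and K326). The first of these, c46420_g1, missed the group with a gap of 2.92.

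**Figure D4:**
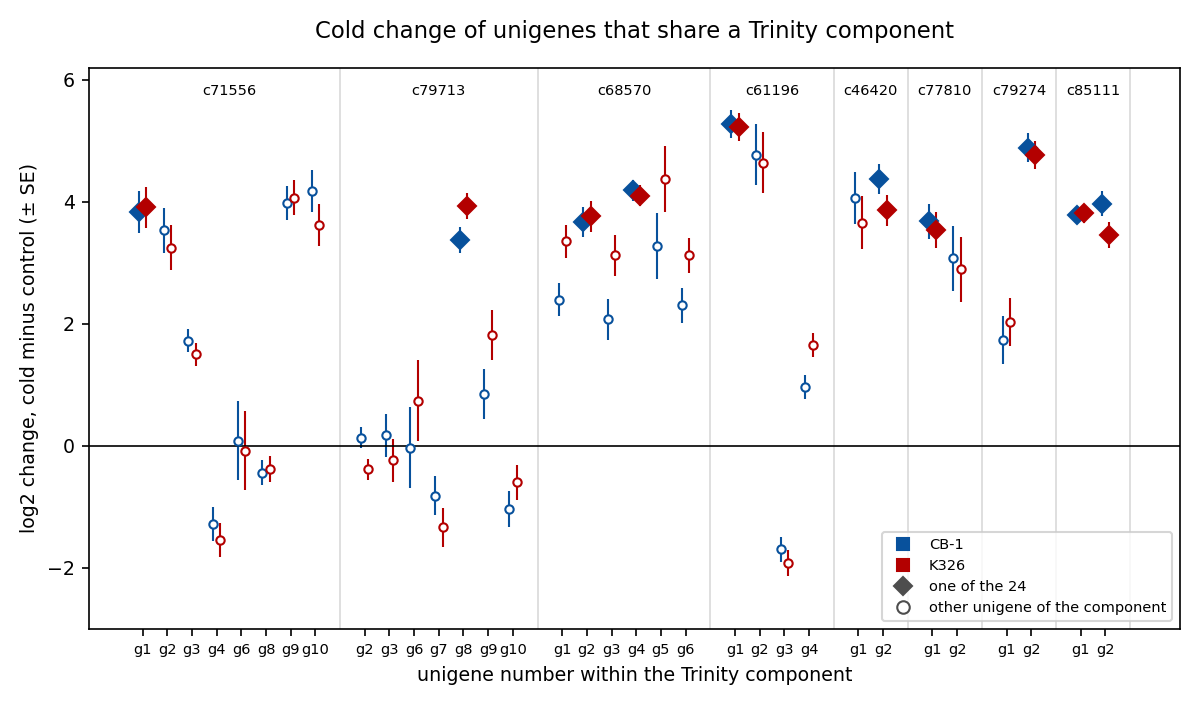
Log2 change, cold minus control, with its limma standard error (bars) for every unigene that passed the filter in the 8 components with several unigenes, blue for CB-1 and red for K326, diamonds for the 24 chosen unigenes and open circles for the others. In c68570 all 6 unigenes lie above 2, whereas c61196, c71556 and c79713 hold unigenes on both sides of 0.

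The study's longer supplementary lists, such as that of hormone genes, were not used here. The lists used, of qPCR primers, of DREB and COR413 genes and of the top transcription factors, name 63 unigenes. They do not hold any of the 24 or of the unigenes in their components. The transcription factors were ranked by the authors on these libraries, so their direction is not independent evidence, while the DREB, COR413 and qPCR lists include genes that the authors took up as known for cold responses. Of the 63, only 14 had a value of at least 2 in all control libraries and 17 were listed at 0 in all of them. The gap of 3 was met by 11, and by 10 of these below the control level, for example c64865_g1 (CRF6, a cytokinin response factor) with 0.00 and 0.00 in CC, 0.00 and 0.00 in KC, 4.25 and 4.98 in CT and 5.45 and 4.81 in KT. The exception was c69854_g3 (NAC002, in Arabidopsis the stress-responsive factor ATAF1), the unigene left out, with 2.92 and 2.61 in CC, 2.69 and 2.32 in KC, 6.87 and 6.07 in CT and 6.46 and 6.68 in KT.

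By pathway, 7 of the 20 DREB and COR413 unigenes passed the limma threshold upwards and 2 downwards in CB-1, with 8 and 5 in K326, and the median changes were 0.99 and 1.29. Of all unigenes tested, 15.5% passed upwards and 17.4% downwards in CB-1, and 14.7% and 19.5% in K326. None of the 20 met the gap of 3, and 3 met the control level. Of the 30 transcription factors, 24 passed upwards and 3 downwards in CB-1, with 27 and 3 in K326, and the medians were 3.22 and 4.12. For the 28 unigenes measured by qPCR these numbers were 16 and 2 in CB-1, 21 and 1 in K326, and the medians 2.45 and 2.53. With the libraries as labelled and deposited, the medians of the 24, 4.00 and 3.92, stood above those of the lists in CB-1 and between them in K326. Their place was set by the rule.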

How the data were processed

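RNA of leaves was sequenced in 8 libraries, and the authors assembled unigenes with Trinity, mapped reads onto them with bowtie, estimated abundance with RSEM and deposited log2 values of the abundance plus 1 for each unigene. Per-sample columns left unused numbered 0. Members were found by the rule on these log2 values as deposited. Tests used limma 3.58.1 in R 4.3.3 (variance moderated along the mean, 4 group means, no block), over the 31884 unigenes that reached a value of 1 in 2 libraries or more, with Benjamini-Hochberg adjustment over all of them. The method was tested on simulated data. The outcome is not given here, so the counts of 0 are no measure of how small the differences are. A fold change is a difference of log2(value + 1), which understates changes of low unigenes. All 24 members are named, other unigenes where they lie next to a limit of the rule or share a component with a member, and c64865_g1 was picked as an example after its values were seen. Members and lists were chosen with earlier results of these data known. Replicate numbers were checked for pairing. Deviations of CC and KC had a correlation of −0.376 across unigenes, and those of the other pairs of groups of −0.043 to 0.044, so equal numbers do not pair the libraries. In the controls the negative sign means that CC1 tended to go with KC2 and CC2 with KC1. Alternatives covered scaling, pseudocount, filter, the libraries in the fit, the block, an unmoderated test and each library left out.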

Additional observations from a re-analysis of the deposited data

How the results depend on the processing

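The number of unigenes that met the rule was 24 as deposited, 56 with a control level of at least 1, 65 with a gap of at least 2.5 and 9 with a gap of at least 3.5. It was 52 with median-ratio scaling and 30 with quantile normalization, each of which kept 23 of the 24. It ranged from 26 to 36 with 1 library left out, 36 without KC1, and leaving a library out can only make the rule easier to meet. The count of members that differed between the cultivars in the cold was 0, against 2 with CC2 and KC2 exchanged, 2 with all control libraries as one group, and 0 to 1 with 1 library left out (1 without CT2). For the difference of responses it was 0, against 2 with all control libraries as one group, a setting in which this difference is the same quantity as KT minus CT. The median difference of responses was −0.06, against 0.31 with the exchange (19 of 24 positive, against 10) and −0.17 to 0.1 with 1 library left out. Without c61196_g1 the mean share of the summed linear values was 0.0893% in the control libraries and 1.89% in the cold libraries. The cause of these shifts was not tested. With the replicate number as a block, the counts of members remained 24 and 24 for the rise in CB-1 and K326 and 0 for each of the 3 comparisons between the cultivars, while over all unigenes the calls between KT and CT went from 129 to 0. That count was also 0 with either other filter, with only CT and KT in the fit and without any one library other than CT2, 300 with median-ratio scaling and 217 without moderation. A block with the numbers of KC crossed, added after seeing the data, gave the same counts of members. The rise in both cultivars was called for all 24 in each of the 19 alternatives, as the choice of members largely fixed, and the counts of related unigenes that rose stayed between 11 and 13 in CB-1 and between 11 and 14 in K326. The reads behind each value were not used here, so no limit from counting can be given. By the paper's read totals, CT1 and KC1 were sequenced less deeply than CT2 and KC2, and an effect of this was not tested.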
